A study of Homo sapiens with 36 samples.

Results

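The 8 genes described here encode transcription factors that set endothelial identity, namely SOX18, SOX17, SOX7, ERG, FLI1, ETS1, TAL1 and GATA2. They were taken by gene symbol, as 8 of the 18048 genes with values, and followed in EA.hy926 cells, a human line made by fusing an umbilical vein endothelial cell with a lung carcinoma cell. The cells were exposed to perfluorooctanoic acid (PFOA), a fluorinated surfactant that breaks down very slowly, at 1, 10 or 100 µM for 48 h, or at 1, 10 or 100 nM for 6 or 12 weeks. At each time a vehicle group received 0.05% DMSO, so every library comes from the same line and each dose has the vehicle of its own time. There were 36 mRNA libraries in 12 groups of 3 biological replicates, and the PFOA treatment is the only difference that the labels give between the groups of 1 time. As a hybrid line, the cells carry the genome of a carcinoma as well as that of an endothelial cell.

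These factors belong to several families. SOX18, SOX17 and SOX7 form the SOXF group of high-mobility-group factors, which act in arterial and lymphatic differentiation. ERG, FLI1 and ETS1 carry the ETS domain, which binds DNA around the core GGAA, and ERG and FLI1 keep up junction and lineage genes in endothelial cells. GATA2 is a zinc finger factor of blood stem cells and endothelium, and TAL1 is a basic helix-loop-helix factor that starts blood and endothelial programmes in the embryo. Many endothelial enhancers hold sites for ETS factors next to those of the other families.

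Libraries held between 17815292 and 19466331 recovered reads. Values are normalised counts, that is, reads divided by the authors' size factor of the library, with mean ± SD over 3 libraries. Fold changes are on the log2(normalised count + 1) scale with their standard error (SE), and adjusted p is the Benjamini-Hochberg value over all genes tested with limma. Counts of list genes above or below vehicle in their means, and such shares of all genes, use the same log2 scale. Ribosomal protein genes (77 of them) took 9.33% to 22.1% of the reads of a library. Libraries of the same group differed in it, and at 6 weeks it differed between groups, and its relation to the members' counts is given with the 6-week data.

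Of the 13 endothelial markers checked, 11 had a mean of at least 10 in each table. CDH5, the junctional VE-cadherin, averaged 3237, 2174 and 2853 at 48 h, 6 weeks and 12 weeks, and PECAM1, an adhesion molecule of the same junctions, 2919, 1552 and 1586. KDR, the main VEGF receptor, stayed at or below 5.19 in every library. CLDN5, a tight junction protein, averaged 0.0623 at 48 h and was at 0 at 6 and 12 weeks. The cells thus carried the endothelial markers checked, except KDR and CLDN5, beside the epithelial keratins KRT7, KRT8 and KRT18. Of 16 epithelial markers, these keratins among them, 6 had a mean of at least 10 at 48 h and 6 weeks and 7 at 12 weeks. The others averaged less.

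Promoter sequence from 250 bases before to 50 after the annotated start (RefSeq, GRCh38.p14) was at hand for ERG, GATA2 and TAL1. ERG and GATA2 are shown because their counts behaved differently in the libraries, as described below, with the ETS core GGAA or its complement TTCC in capitals. Of the 4 starts listed for ERG and the 2 for GATA2, the first listed was taken. The annotated span of ERG, given below, reaches further upstream than the start taken for it. The ERG window is chr21:38660618-38660917 and the GATA2 window is chr3:128493152-128493451, both on the minus strand and written 5′ to 3′.
ERG: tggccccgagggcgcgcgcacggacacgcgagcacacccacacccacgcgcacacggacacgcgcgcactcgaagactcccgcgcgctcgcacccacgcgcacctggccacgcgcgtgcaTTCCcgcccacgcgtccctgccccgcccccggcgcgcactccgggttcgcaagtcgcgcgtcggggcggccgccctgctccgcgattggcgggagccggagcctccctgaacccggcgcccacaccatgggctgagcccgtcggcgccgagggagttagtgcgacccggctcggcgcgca
GATA2: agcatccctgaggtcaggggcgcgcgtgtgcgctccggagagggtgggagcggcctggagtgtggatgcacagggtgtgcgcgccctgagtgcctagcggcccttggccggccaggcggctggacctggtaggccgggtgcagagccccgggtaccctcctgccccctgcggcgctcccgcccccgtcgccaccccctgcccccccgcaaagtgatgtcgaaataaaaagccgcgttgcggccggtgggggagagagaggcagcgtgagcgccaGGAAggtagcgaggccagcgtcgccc
Each window held 1 match to GGAA on either strand, which 95.5% of the 35116 promoters of that length hold. The GATA motif AGATAA and the SOX motifs ACAAAG and ACAATG were not in either window, and 10.3%, 16.1% and 10.8% of promoters hold them. The GC content was 77.0% in the ERG window and 72.3% in the GATA2 window, against a median of 58.7% over promoters. These matches describe the letters only.

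TAL1 was low. It held 1 read in the 36 libraries, in vehicle replicate 3 at 48 h, where the normalised count was 1.01, and 0 in the other 35. A count of 0 allows up to 3 reads in a library, so TAL1 entered no test. The other 7 members were tested in every table. LYL1, a close relative of TAL1, and LMO2, which bridges such factors to GATA proteins, were expressed. Their means in vehicle at 6 weeks were 1050 ± 511 and 259 ± 102.

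Divided by the length of the longest transcript, the vehicle levels at 48 h were highest for ERG, at 219 ± 45.2 normalised counts per kilobase. They were followed by SOX7 at 204 ± 33.1, SOX18 at 191 ± 93.1, GATA2 at 179.8 ± 3.34, FLI1 at 169.9 ± 41.9 and ETS1 at 136 ± 66.0 per kilobase. Neighbours in that order overlapped in their libraries down to ETS1, and SOX17 lay apart below them at 57.4 ± 7.26. At 6 and 12 weeks SOX18 had the highest mean in vehicle, at 220.0 ± 102 and 216 ± 139.8 per kilobase, and it overlapped the next gene at both times. SOX17 had the lowest mean of the 7 at both times and overlapped the next gene, ETS1 at 6 weeks and GATA2 at 12 weeks, at 43.6 ± 10.2 and 46.1 ± 13.3 per kilobase.

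After 48 h at micromolar doses, GATA2 and SOX17 were the members whose libraries at 10 and 100 µM all lay below those of vehicle. SOX7 and ERG were below vehicle in their means, with overlap. ETS1 was below it on the log2 scale, but its mean count at 10 µM was 699.9 ± 902 against 699.5 ± 339 in vehicle. FLI1 and SOX18 had fold changes within their SE of 0 at both doses. The mean count of SOX18 at 10 µM was 483 ± 350 against 357 ± 174 in vehicle. No member passed the test, since limma called 0 of 12233 genes (0%) at each dose. Genes at an unadjusted p under 0.05 made up 0.0490%, 2.82% and 1.99% of those tested at 1, 10 and 100 µM. edgeR called 0 genes at each dose, and DESeq2 called 1, 1 and 0 (0.00817% at each of the lower doses), none of them a member. The 7 members had a median log2 fold change of -0.06, -0.61 and -0.46 at 1, 10 and 100 µM, beside -0.01, 0.01 and 0.03 over all genes.

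GATA2 had counts of 594, 616 and 606 in vehicle libraries, 601, 569 and 398 at 1 µM, 254, 592 and 353 at 10 µM and 323, 338 and 369 at 100 µM. All libraries at 10 and 100 µM lay below the 3 vehicle libraries, which differed little among themselves, while 1 µM overlapped them. The mean was 343 ± 23.6 at 100 µM against 605 ± 11.3 in vehicle, a log2 fold change of -0.82 ± 0.29 (limma adjusted p = 0.993). At 10 µM it was -0.69 ± 0.29 (adjusted p = 0.960). The slope per dose step was -0.29 ± 0.09 (limma adjusted p = 0.808), so it did not pass either, in a test where 4.25% of all genes had an unadjusted p under 0.05.

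SOX17 had counts of 115, 144 and 145 in vehicle libraries, 142, 120.3 and 123 at 1 µM, 98.2, 113 and 41.7 at 10 µM and 82.7, 76.4 and 102 at 100 µM. Again the libraries at 10 and 100 µM lay below those of vehicle, and the lowest was replicate 3 at 10 µM. Its fold change was -0.78 ± 0.34 at 10 µM (limma adjusted p = 0.960) and -0.63 ± 0.34 at 100 µM (adjusted p = 0.993). Groups without overlap, lower with PFOA, were found for 3.52% of all genes at 10 µM and 6.46% at 100 µM, and for 2 of the 7 members at each dose.

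SOX7 and ERG were below vehicle in their means at 10 and 100 µM, with overlap. ERG had 665, 711 and 1042 at 100 µM against 1189, 1272 and 843 in vehicle, a fold change of -0.46 ± 0.40 (adjusted p = 0.993), and SOX7 had 348, 423 and 588 against 667, 755 and 543, a fold change of -0.55 ± 0.40 (adjusted p = 0.993). At 10 µM the fold changes were -0.61 ± 0.40 for SOX7 and -0.50 ± 0.40 for ERG (adjusted p = 0.960 each). FLI1 ranged from 495 to 1169 over all 12 libraries and had fold changes of 0.09 and -0.06 at 10 and 100 µM. For these 3 genes PFOA and vehicle libraries overlapped at both doses.

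ETS1 and SOX18 varied most between libraries of 1 group. At 10 µM ETS1 had 311, 1731 and 57.4, and SOX18 had 465, 143 and 841 in the same libraries. Replicate 3 was the lowest of the 12 libraries for ETS1 and the highest for SOX18, and replicate 2 was the reverse. Over the 12 libraries ETS1 ranged 30.2-fold, SOX18 5.90-fold and GATA2 2.43-fold. The SE of the ETS1 fold change was 1.04 on the log2 scale, and its value at 10 µM, -1.0, lay within it, as did its value at 100 µM, -0.40. SOX18 had fold changes of 0.20 ± 0.67 and 0.05 ± 0.67 at 10 and 100 µM. Slopes per dose step at 48 h were -0.26 ± 0.11 for SOX17 (limma adjusted p = 0.808), -0.22 for SOX7, -0.18 for ERG, -0.25 for ETS1, -0.019 for FLI1 and 0.055 for SOX18.

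After 6 weeks at nanomolar doses the members lay on both sides of vehicle. At 10 nM SOX17, SOX7, ERG, FLI1 and ETS1 were above vehicle in every library and SOX18 was below it in every library as deposited, while GATA2 overlapped. After a correction for GC content and length, given below, SOX18 was no longer below vehicle in its mean. None passed the test at any dose (limma called 0 of 12201 genes, 0%, at 1, 10 and 100 nM). The smallest adjusted p over all genes at 10 nM was 0.0953, and 44.0% of genes were at an unadjusted p under 0.05. At 1 and 100 nM that share was 0.254% and 12.2%. Groups did not overlap for 60.3% of all genes (30.6% higher and 29.8% lower) at 10 nM and 47.3% at 100 nM, so 6 of 7 and 5 of 7 members without overlap stand against a large background. The absence of calls at 10 nM depended on the fit. DESeq2 on the recovered reads called 5 of the 7 members (30.4% of genes) and limma on the 6 libraries of these 2 groups alone called 6 (38.9%), while edgeR called 0. With the replicate number as a block in that fit of 6 libraries, chosen after seeing the data, limma called 6 (63.3%). Without replicate 1 or 3 of the 1 nM group, which enters this comparison only through the shared estimate of spread, limma called 6 and 5 members (48.7% and 26.1% of genes).

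ETS1 had counts of 139, 445 and 419 in vehicle libraries, 1568, 169 and 137 at 1 nM, 994, 1959 and 1629 at 10 nM and 1551, 1049 and 659 at 100 nM. Replicate 1 at 1 nM lay among the libraries of 10 and 100 nM, and the other two lay at the low end of vehicle. The fold change was 2.31 ± 0.80 at 10 nM (limma adjusted p = 0.0953) and 1.79 ± 0.80 at 100 nM (adjusted p = 0.272).

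ERG had counts of 438, 478 and 737 in vehicle libraries, 1054, 643 and 466 at 1 nM, 957, 1296 and 1136 at 10 nM and 1177, 1053 and 733 at 100 nM. It was without overlap at 10 nM, with a fold change of 1.06 ± 0.34 (adjusted p = 0.0953), and overlapped vehicle by 1 library at 100 nM (0.85 ± 0.34). FLI1, its close relative, averaged 853 ± 233 at 10 nM against 453 ± 119 in vehicle, a fold change of 0.91 ± 0.33 (adjusted p = 0.0953), and its fold change at 100 nM was 0.56 ± 0.33 (adjusted p = 0.275).

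SOX7 had counts of 589.7, 773 and 712 at 10 nM against 244, 310.1 and 405 in vehicle, a fold change of 1.13 ± 0.37 (adjusted p = 0.0953), and 0.85 ± 0.37 at 100 nM. SOX17 had 203, 195 and 179 at 100 nM against 84.1, 93.1 and 129 in vehicle, and its fold changes were 0.85 ± 0.33 at 10 nM and 0.93 ± 0.33 at 100 nM (adjusted p = 0.272 at 100 nM). Both SOXF genes were above all vehicle libraries at 10 and 100 nM. The third SOXF gene, SOX18, lay on the other side, with 179, 106 and 129 at 10 nM and 117, 153 and 241 at 100 nM against 629, 284 and 317 in vehicle. Its fold changes were -1.50 ± 0.57 (adjusted p = 0.0953) and -1.23 ± 0.57 (adjusted p = 0.272).

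As deposited, GATA2 had the smallest difference of the members at 10 and 100 nM after 6 weeks, but it was 0.95 at 10 nM after the correction for GC content and length and 0.93 under scaling by total reads. It had 493, 440.0 and 516 at 10 nM and 458, 491 and 351 at 100 nM against 549.6, 259 and 457 in vehicle, so the groups overlapped, and its fold changes were 0.26 ± 0.31 and 0.09 ± 0.31. Slopes per dose step were 0.75 for ETS1, 0.36 for SOX7, 0.35 for SOX17, 0.33 for ERG and -0.49 for SOX18 (limma adjusted p = 0.0979 each), 0.23 for FLI1 and 0.03 for GATA2. In that slope test 44.6% of all genes had an unadjusted p under 0.05. DESeq2 called 5 members in it (26.0% of genes), and limma without replicate 1 of the 1 nM group called 6 (58.1% of genes).

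**Figure D1:**
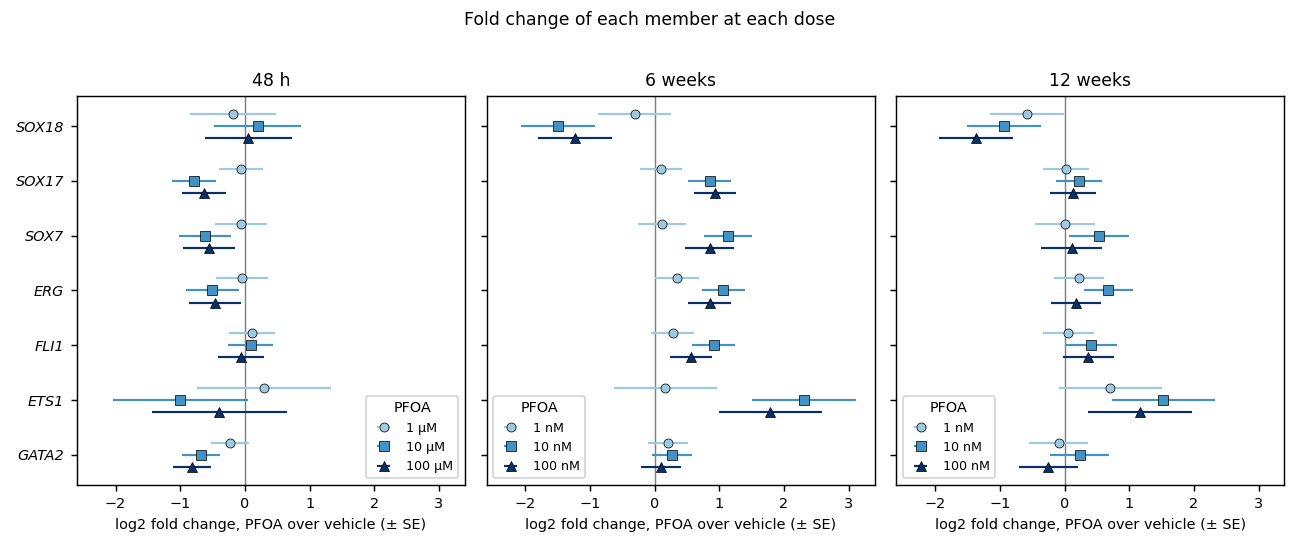
Log2 fold change of each member, PFOA over vehicle, with its standard error (horizontal axis), at 1, 10 and 100 µM after 48 h and at 1, 10 and 100 nM after 6 and 12 weeks. ETS1 reaches 2.31 and SOX18 -1.50 at 10 nM after 6 weeks, and no value passed the test across all genes.

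The 6-week differences went with the composition of the libraries. The ribosomal protein share was 9.33% to 13.4% at 10 nM and 11.7% to 16.2% at 100 nM, against 17.2% to 19.4% in vehicle. As deviations from the group means over 36 libraries, SOX18 rose with this share (Pearson r = 0.90, Spearman rho = 0.88). The other members ran against it, with r = -0.93 for ERG, -0.93 for ETS1, -0.86 for SOX7, -0.76 for FLI1 and -0.76 for SOX17, and rho = -0.91, -0.92, -0.86, -0.76 and -0.69 in the same order. In two-sided permutation tests within groups, p for r was 1e-05, the smallest that 100000 permutations can give, for SOX18, SOX7, ERG, FLI1 and ETS1 (adjusted over 7 relations 1.4e-05) and 0.00013 for SOX17 (adjusted 0.00015). Permutation p for rho was 0.00037 for SOX17 (adjusted 0.00043) and again the smallest possible for those 5 genes. GATA2 had the weakest relation (r = -0.45, permutation p and adjusted p = 0.05, and rho = -0.47, permutation p and adjusted p = 0.023). The relation to the share was not tested over all genes, so these p-values do not set the members apart from other genes. Within a table, the first principal component alone held 69.2% (12 weeks), 78.0% (48 h) or 83.8% (6 weeks) of the variation between libraries.

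Without the 2 libraries farthest from the median share, r was 0.89 for SOX18, -0.75 for SOX17, -0.84 for SOX7, -0.92 for ERG, -0.72 for FLI1, -0.92 for ETS1 and -0.39 for GATA2. Within the 12 libraries of each time, r for SOX18 was 0.96, 0.93 and 0.84 at 48 h, 6 weeks and 12 weeks, and r for ERG was -0.97, -0.90 and -0.91. GATA2 changed most between times, with -0.71 at 48 h, -0.04 at 6 weeks and -0.50 at 12 weeks. The share and the gene counts come from the same reads and size factors. What part the share has in the fold changes was not tested.

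Once the first principal component of a table entered the model as a covariate (83.8% of the variance at 6 weeks), the fold changes at 10 nM were 0.06 for ETS1, 0.23 for SOX7, 0.34 for ERG, 0.15 for FLI1, 0.18 for SOX17 and 0.07 for SOX18. That component scored all 3 libraries at 10 nM and all 3 at 100 nM above the 3 of vehicle, so the covariate and the dose share much of their variation. With a correction for GC content and length, chosen after seeing the data, ETS1 was at 1.50, SOX7 at 1.14, SOX17 at 1.66 and GATA2 at 0.95, and SOX18 at 0.10. Scaling by the total reads of a library, also chosen after seeing the data, put the median of all genes at 0.72, against 0.05 as deposited, with SOX18 at -0.84 and GATA2 at 0.93. The transcript of SOX18 has 69.4% GC, at percentile 99.5 of the tested genes, and that of ETS1 42.6%, the lowest of the 8. At 48 h the covariate left GATA2 at -0.57 for 10 µM and -0.71 for 100 µM (limma adjusted p = 0.215 and 0.197).

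**Figure D2:**
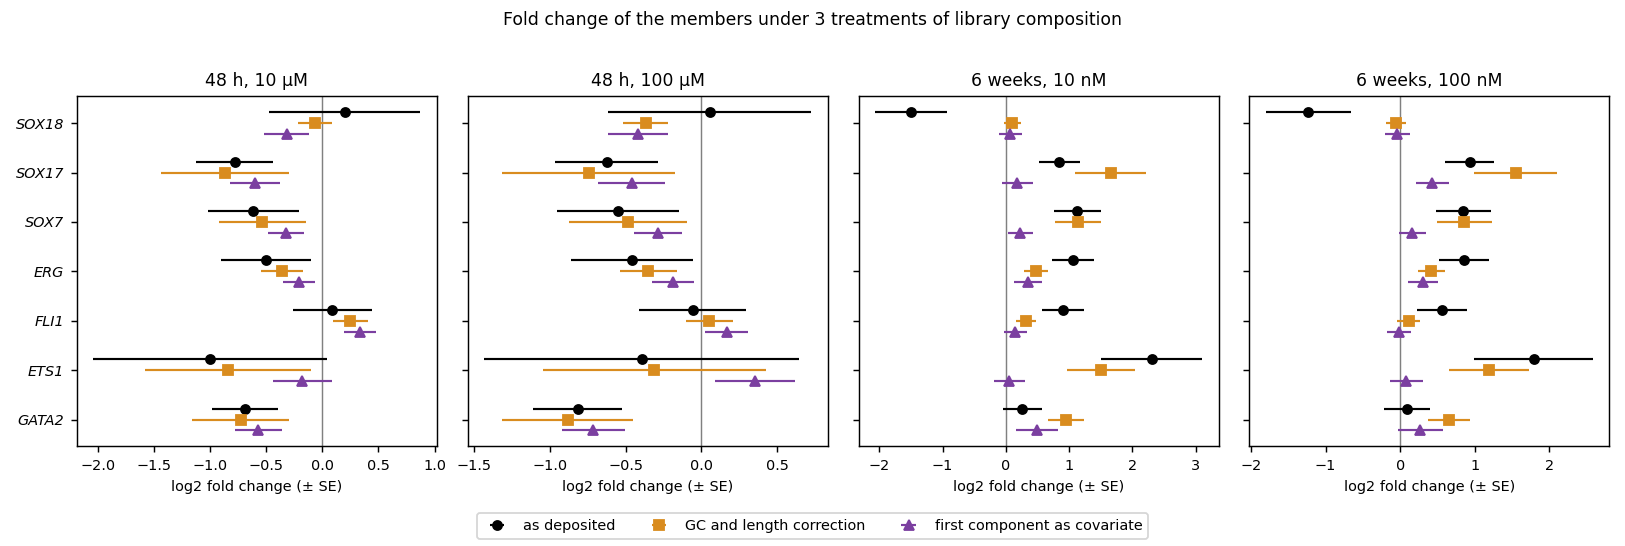
Log2 fold change of the members with its standard error (horizontal axis) in 4 comparisons, as deposited (black circles), after correction for GC content and length (orange squares) and with that component in the model (purple triangles). GATA2 at 48 h lies between -0.88 and -0.57 in all 3, while SOX18 at 6 weeks and 10 nM is at -1.50 as deposited and 0.07 with the covariate.

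After 12 weeks no member was without overlap at any dose, where 2.46%, 3.28% and 4.64% of all genes were at 1, 10 and 100 nM. limma called 0 of 12304 genes (0%) at each dose, with 0.195%, 1.37% and 2.33% at an unadjusted p under 0.05. SOX18 had counts of 329.6, 693 and 187 in vehicle libraries, 161, 239 and 331 at 1 nM, 406, 109 and 137 at 10 nM and 194, 148 and 86.1 at 100 nM. Vehicle replicate 2 was the highest of the 12 libraries and 100 nM replicate 3 the lowest. The fold change was -0.93 ± 0.57 at 10 nM and at 100 nM -1.37 ± 0.57 (limma adjusted p = 0.751), and the slope per dose step was -0.44 ± 0.18 (limma adjusted p = 0.657), where 2.22% of all genes had an unadjusted p under 0.05.

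ETS1 had counts of 531, 215 and 1049 in vehicle libraries, 1514, 659 and 526 at 1 nM, 476, 2289 and 2653 at 10 nM and 766, 587 and 3015 at 100 nM. Replicates 2 and 3 were high at 10 nM and replicate 3 at 100 nM, and the groups overlapped vehicle. Its fold change was 1.53 ± 0.80 at 10 nM (adjusted p = 0.655) and 1.17 ± 0.80 at 100 nM (adjusted p = 0.751). ERG, SOX7, FLI1 and SOX17 had fold changes of 0.68, 0.54, 0.41 and 0.22 at 10 nM and 0.18, 0.11, 0.37 and 0.13 at 100 nM, within 2 SE of 0 in each case. At 10 and 100 nM and at both times, SOX18 was below vehicle in its means as deposited and ERG, ETS1, FLI1, SOX7 and SOX17 above it, but after the correction for GC content and length SOX18 at 6 weeks and 10 nM (0.10) and ERG at 12 weeks and 100 nM (-0.040) had the other sign. With the covariate that held for SOX18 at 6 weeks and 10 nM, FLI1 at 6 weeks and 100 nM, SOX17 and FLI1 at both doses at 12 weeks, and SOX7 and ERG at 12 weeks and 100 nM. At 1 nM the 7 members had medians of 0.16 and 0.03 at 6 and 12 weeks. The 3 doses of a time share their vehicle libraries.

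GATA2 had lower counts in every group at 12 weeks than in any at the other times, at 110.2, 219 and 186 in vehicle libraries, 151, 160.2 and 153 at 1 nM, 155, 218 and 216 at 10 nM and 213, 59.0 and 208 at 100 nM. Vehicle and PFOA libraries overlapped, and the lowest was replicate 2 at 100 nM. All 12 libraries, 59.0 to 219, lay below all those at 6 weeks, 259 to 588, and at 48 h, 254 to 616. Levels across times are set side by side only, since the tables were scaled by the authors and time goes with culture and sampling. Its fold changes at 12 weeks were 0.23 ± 0.46 at 10 nM and -0.26 ± 0.46 at 100 nM. Slopes per dose step at 12 weeks, besides that of SOX18, were 0.43 for ETS1, 0.15 for FLI1, 0.10 for ERG, 0.085 for SOX7, 0.059 for SOX17 and -0.045 for GATA2, none of which passed.

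The fold changes at 12 weeks were not shown to differ from those at 6 weeks. For the difference, limma called 0 of 12037 genes (0%) at each dose, and 0.208%, 0.349% and 0.565% were at an unadjusted p under 0.05 for 1, 10 and 100 nM, none of them a member. The members' median of that difference, 12 minus 6 weeks, was -0.12, -0.50 and -0.62 for 1, 10 and 100 nM.

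Of 46 other endothelial transcription factors, 43 were tested at 6 weeks and 0 passed. At 10 nM 35 were above vehicle in their means and 8 below, with a median of 0.81 beside 0.05 over all genes, of which 51.8% were above vehicle. Of the 43, 23 were higher and 3 lower at an unadjusted p under 0.05, where 21.8% and 22.2% of all genes were. What part the composition of the libraries has in the values of this list was not tested. MECOM, a zinc finger factor of arterial endothelium and blood stem cells, had 1.64 ± 0.44, TEAD1, the partner of YAP, 2.04 ± 0.57 and the flow-responsive KLF4 1.27 ± 0.39. LYL1 was at -1.96 ± 0.61 (limma adjusted p = 0.0953 for these 4 genes). At 100 nM KLF4 had 1.35 ± 0.39, LMO2 0.86 ± 0.33, TEAD1 1.41 ± 0.57 and LYL1 -1.53 ± 0.61 (adjusted p = 0.272 for each).

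Genes that these factors act on, or that mark endothelium, split at 6 weeks. Of the 33 tested of 42, 16 were above and 17 below vehicle in their means at 10 nM, with a median of -0.21, and 0 passed. TEK, the angiopoietin receptor, had 1.85 ± 0.60 and NRP1, a VEGF co-receptor, 1.12 ± 0.36, while ICAM2, an adhesion molecule, had -1.67 ± 0.54 and EGFL7, a secreted vascular factor, -2.11 ± 0.70 (limma adjusted p = 0.0953 for each). At 100 nM TEK had 1.45 ± 0.60, thrombomodulin (THBD) 0.94 ± 0.41, the sphingosine phosphate receptor S1PR1 1.35 ± 0.59 and ICAM2 -1.22 ± 0.54, and again 0 passed. At 48 h and 100 µM, 21 of 35 were below vehicle with a median of -0.12, and 0 passed, where 46.3% of all genes were below vehicle, with a median of 0.03. The Notch ligand DLL4 had -0.94 ± 0.37, its receptor NOTCH1 -0.71 ± 0.30, the surface lectin CLEC14A -0.91 ± 0.28 and the peptide hormone APLN -0.85 ± 0.31 (adjusted p = 0.993 for each).

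At 12 weeks and 100 nM, 24 of 33 such genes were below vehicle, with a median of -0.39, and 0 passed, beside 49.8% of all genes below vehicle and a median of 0.00324 over all genes. PLVAP, a component of endothelial fenestrae, was at -1.80 ± 0.60 and VWF, the platelet-binding von Willebrand factor, at -0.79 ± 0.34 (limma adjusted p = 0.751 for both). The matrix protein MMRN2 was at -0.83 ± 0.34 and the BMP receptor ACVRL1 at -0.98 ± 0.45. Of the transcription factors there, 32 of 44 were above vehicle, NFATC1 was at -0.76 ± 0.31, KLF4 at 1.04 ± 0.44, ETV5 at 0.63 ± 0.32 and TEAD1 at 1.30 ± 0.69, and 0 passed. Of the transcription factors at 48 h and 100 µM, 28 of 43 were below vehicle, with a median of -0.14. SOX13 was at -0.74 ± 0.26, KLF2, a flow-responsive factor, at -0.78 ± 0.29, the ETS factor ELK1 at -0.74 ± 0.28 and SOX4 at 0.59 ± 0.25 (adjusted p = 0.993 for each).

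At 6 weeks the summed level of the 16 epithelial markers, of which 6 had a mean of at least 10, was 20872 to 40996 at 10 nM and 28716 to 55767 at 100 nM against 74636 to 143064 in vehicle. Almost all of that sum came from KRT7, KRT8 and KRT18, which lay below vehicle in every library at both doses. CLDN4 and GRHL2 overlapped vehicle, and EPCAM, an epithelial adhesion molecule, was above it at both doses, with 12.1 to 15.3 at 10 nM and 12.3 to 17.5 at 100 nM against 3.23 to 6.57 in vehicle. Over all genes, groups did not overlap for 60.3% at 10 nM (30.6% higher and 29.8% lower) and 47.3% at 100 nM. CDH1, the epithelial cadherin, was at 0 in every library at 6 weeks.

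The 13 endothelial markers summed to 26179.8 to 35319.7 at 10 nM and 29449 to 40872 at 100 nM against 53017 to 111532 in vehicle, and the most abundant of them, ENG, EGFL7, TIE1 and ICAM2, lay below vehicle at both doses. Single markers differed in direction. Of the 11 with a mean of at least 10, 2 lay above, 5 below and 4 overlapped vehicle at 10 nM, and 1 lay above, 5 below and 5 overlapped at 100 nM. These counts stand beside the 60.3% and 47.3% of all genes without overlap at 10 and 100 nM. TEK was above vehicle at both doses and CDH5 at 10 nM, while PECAM1, FLT1 and VWF overlapped it at both. Of 14 haematopoietic markers 2 had a mean of at least 10. The sum over that whole list overlapped vehicle. It was 597 to 779 at 10 nM and 609.5 to 659 at 100 nM, against 563 to 928 in vehicle. RUNX1, the most abundant, overlapped vehicle at both doses, while CSF1R lay below it at both. Of 11 mesenchymal markers 4 had such a mean, and the sum over that list overlapped as well. It was 874 to 1310.1 at 10 nM and 1039 to 1317 at 100 nM, against 1051 to 2054 in vehicle. SNAI1 overlapped vehicle at both doses. TAGLN lay below vehicle at both, at 66.3 to 98.7 and 63.7 to 131.7 against 151.7 to 342.7. ACTA2 lay below vehicle at 10 nM only and COL1A1 at 100 nM only. The part of these markers in the members' values was not tested. All libraries come from the same line. In bulk libraries, fewer cells expressing a gene and less RNA per cell cannot be told apart.

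Among themselves, the members followed each other from library to library. As deviations from group means over 36 libraries, r was 0.92 between ERG and ETS1, 0.91 between SOX7 and ERG and 0.85 between FLI1 and ETS1. SOX18 ran against ETS1 (r = -0.93) and GATA2 was only loosely tied to the others, from r = -0.15 with SOX18 to 0.45 with SOX7. These values share libraries, depth and size factors and are a description. Of 10413 genes with a mean of at least 50 compared after subtracting the mean of each table, those most like ETS1 were CCDC47, ZNF217 and SRPK2 (r = 0.99 each), those most like SOX18 DIPK1B, HSPB1 and NAGPA (r = 0.98, 0.97 and 0.97), and those most like GATA2 ARHGAP23, EPHB2 and ATF6B (r = 0.95, 0.95 and 0.94).

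In GRCh38.p14 the genes lie as follows: SOX18 on chromosome 20 from 64047582 to 64049639, ERG on chromosome 21 from 38367261 to 38661783, TAL1 on chromosome 1 from 47216290 to 47232335 and GATA2 on chromosome 3 from 128479422 to 128493201, with SOX17 and SOX7 on chromosome 8. ETS1 and FLI1 are neighbours on chromosome 11, from 128458765 to 128587558 and from 128685132 to 128813267. SOX7 overlaps PINX1, a telomerase inhibitor, on the same strand, and PINX1 averaged 690.3, 841 and 698 at 48 h, 6 weeks and 12 weeks. Antisense genes overlap SOX7, FLI1, ETS1, GATA2 and TAL1, and a pseudogene on the opposite strand overlaps ERG. How strand was counted is unknown from the sources at hand. The SOX7, ERG, FLI1, ETS1, GATA2 and TAL1 counts are uncertain to the extent that reads of these partners were assigned to them.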

How the data were processed

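The files hold 1 signal value per gene and library, which the authors deposited as reads over a library's size factor. The submitters' processing notes name HISAT, Bowtie2, DESeq2 and the build GRCh38.p14. Versions, roles, the counter and strandedness were not given in the sources used here. All values were within 0.01 of whole multiples of 1 step per library, so whole reads were recovered; in vehicle replicate 3 at 6 weeks that step was 1.01.

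Members were matched by symbol after removing a trailing apostrophe. The members and lists were chosen with earlier results of these data known. Genes averaging 10 or more were tested with limma 3.58.1 (trend) in R 4.3.3 on log2(signal + 1), over the 12 libraries of a table, two-sided, with Benjamini-Hochberg adjustment over all genes and a threshold of 0.05. A fold change on this scale understates that of low genes. The difference between 12 and 6 weeks used 24 libraries. A single value with 3 libraries against 3 cannot go below p = 0.1 in an exact permutation test. Of each list, genes are named by the smallest p within a comparison, up to 4. Alternatives were pseudocounts of 0.1 and 10, other filters and normalizations, covariates, library weights, the replicate block, each library left out, and edgeR 4.0.16 and DESeq2 1.42.0 on recovered reads. The procedure was tested on simulated data. Dividing by size factors leaves differences in library composition in place. TAL1 was left out of the tests. Transcript GC content and length, known for 96.6% of tested genes, are of the longest GENCODE 29 transcript. Intervals between replicates cover these cultures of 1 line only.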

Additional observations from a re-analysis of the deposited data

How the results depend on the processing

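All 15 contrasts and settings had been run before it was chosen which values to print singly, and the main fits held 105 estimates for the members. The 12 contrasts within a time had every setting, except that the slopes had no fit of only the groups compared; the 3 differences between 12 and 6 weeks had both pseudocounts, the replicate block and each library left out. Single members were recomputed for the 10 and 100 doses and the dose slopes, whatever their p, and the 1 nM and 1 µM doses and the differences between times as medians. Of the 1659 estimates of the single members given under other settings, 86 had another sign and 76 passed the threshold, and of 1134 estimates behind the medians 102 had another sign. The list genes named in the report (32 gene and comparison pairs) had 861 such estimates, of which 0 had another sign and 67 passed the threshold. Settings in which genes passed called large shares of all genes. At 6 weeks and 10 nM DESeq2 called 30.4% and limma on only the groups compared 38.9%. Library quality weights called 13.4% to 88.7% in the contrasts given below. The counts of passing estimates therefore do not set the members or list genes apart from other genes. The number of members that passed was 0 in each contrast as reported and also 0, where run, under both pseudocounts, no filter, a mean of at least 50, quantile normalization, edgeR, the covariate, scaling by total reads and the GC and length correction. With the replicate block over all libraries of a contrast it was 0 in every contrast. Across the tables the replicate numbers did not pair the libraries, since deviations of same-numbered libraries correlated from -0.89 to 0.89, over 0.1 in 7, 5 and 8 of 18 pairs at 48 h, 6 weeks and 12 weeks. Of 18 pairs of groups, 1 had every correlation over 0.1, namely 10 nM and vehicle at 6 weeks, with 0.66, 0.55 and 0.34 for replicates 1, 2 and 3. The fit of only the groups compared with the replicate block, added after seeing the data, passed 6 members there (63.3% of all genes), 1 member (ETS1) at 100 nM and 6 weeks (4.64%), where the correlations were below 0, and 0 in the other comparisons.

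Library quality weights passed 3, 7 and 5 members at 48 h for 1 µM, 100 µM and the slope, 4, 6, 6 and 6 at 6 weeks for 1 nM, 10 nM, 100 nM and the slope, and 2 and 6 at 12 weeks for 1 and 10 nM. Their estimation stopped before convergence in all 3 tables, with weights from 1.22e-07 to 559.8, and they called 13.4% to 88.7% of all genes in these contrasts. At 10 nM and in the slope at 6 weeks, DESeq2 passed 5 members each (26.0% of all genes in the slope), and 6 passed at 10 nM with only the groups compared. Leaving out 1 library gave 0 to 6 members at 10 nM and 0 to 6 in the slope at 6 weeks (6 without replicate 1 of the 1 nM group in both, 5 without its replicate 3 at 10 nM), and 0 elsewhere. DESeq2 gave no adjusted p to the members for 100 nM at 6 weeks.

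The sign differed from the reported value under the covariate at 48 h, 10 µM for SOX18 (-0.32), at 48 h, 100 µM for SOX18 (-0.42), FLI1 (0.17) and ETS1 (0.35), at 48 h dose slope for SOX18 (-0.15), FLI1 (0.080) and ETS1 (0.082), at 6 weeks, 10 nM for SOX18 (0.071), at 6 weeks, 100 nM for FLI1 (-0.017), at 6 weeks dose slope for SOX18 (0.00786) and FLI1 (-0.00949), at 12 weeks, 10 nM for SOX17 (-0.14) and FLI1 (-0.040), at 12 weeks, 100 nM for SOX17 (-0.17), SOX7 (-0.33), ERG (-0.20) and FLI1 (-0.017) and at 12 weeks dose slope for SOX17 (-0.051), SOX7 (-0.073) and ERG (-0.039). After the GC and length correction, with and without the block, it differed at 48 h, 10 µM for SOX18 (-0.066), at 48 h, 100 µM for SOX18 (-0.37) and FLI1 (0.051), at 48 h dose slope for SOX18 (-0.12) and FLI1 (0.037), at 6 weeks, 10 nM for SOX18 (0.10), at 6 weeks dose slope for SOX18 (0.000405), at 12 weeks, 100 nM for ERG (-0.040) and GATA2 (0.15) and at 12 weeks dose slope for GATA2 (0.084). Under scaling by total reads it differed at 48 h, 10 µM for SOX18 (-0.12) and FLI1 (-0.23), at 48 h, 100 µM for SOX18 (-0.25), at 48 h dose slope for SOX18 (-0.073), at 12 weeks, 100 nM for GATA2 (0.035) and at 12 weeks dose slope for GATA2 (0.058). With library quality weights it differed at 12 weeks, 10 nM for FLI1 (-0.015), at 12 weeks, 100 nM for FLI1 (-0.30) and GATA2 (0.34) and at 12 weeks dose slope for FLI1 (-0.044) and GATA2 (0.15). With edgeR it differed at 48 h, 10 µM for ETS1 (0.033) and at 12 weeks dose slope for GATA2 (0.020), and with DESeq2 at 12 weeks dose slope for GATA2 (0.00302). The cause was not tested.

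With each library left out in turn, values that changed sign ran for SOX18 from -0.37 to 0.91 (48 h, 10 µM), -0.33 to 0.53 (48 h, 100 µM) and -0.061 to 0.20 (48 h dose slope). For FLI1 they ran from -0.25 to 0.37 (48 h, 10 µM), -0.25 to 0.12 (48 h, 100 µM), -0.076 to 0.033 (48 h dose slope), -0.026 to 0.70 (12 weeks, 10 nM) and -0.067 to 0.66 (12 weeks, 100 nM). For ETS1 they ran from -2.23 to 0.22 (48 h, 10 µM) and -0.97 to 0.21 (48 h, 100 µM). For GATA2 they ran from -0.057 to 0.49 (6 weeks, 10 nM), -0.22 to 0.32 (6 weeks, 100 nM), -0.061 to 0.10 (6 weeks dose slope), -0.056 to 0.43 (12 weeks, 10 nM), -0.57 to 0.35 (12 weeks, 100 nM) and -0.14 to 0.14 (12 weeks dose slope). For SOX7 they ran from -0.13 to 0.40 (12 weeks, 100 nM). For ERG they ran from -0.069 to 0.50 (12 weeks, 100 nM).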
